A study of Mus musculus with 137 samples.

Results

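Replication-dependent histone genes encode the H1, H2A, H2B, H3 and H4 proteins that package newly made DNA. They were taken here as the mouse genes whose symbols start with Hist1h, Hist2h, Hist3h or Hist4h, which gave 70 of 36053 genes. Hist2h2be was described apart because its reads follow GFP in injected embryos, and the remaining 69 genes, 6 of H1, 20 of H2A, 18 of H2B, 12 of H3 and 13 of H4, are the members. Of these, 56 lie on chromosome 13, 9 on chromosome 3, 3 on chromosome 11 and 1 on chromosome 6 (GRCm38, the mm10 build, GENCODE M21 annotation). Hist1h2aj, Hist1h2al and Hist3h2bb-ps, all counted as members, are pseudogenes in that annotation. Symbols came from that annotation because the authors' table of genes uses newer names (H2bc21 for Hist2h2be, for example), and only 9 member symbols appear in it in the older form.

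RNA was measured in single B6129F1 embryos at the 2-cell stage, in 2 experiments. Zygotes were taken at 5 hours after fertilization and treated from 6 hours on in the culture medium KSOM, with no oil over it. The first group received SR1848 at 10 µM, a compound that inhibits the nuclear receptor NR5A2, together with injected NR5A2 mRNA (500 ng/µl; 27 embryos in experiment 1 and 40 in experiment 2). The second received SR1848 alone (17 and 24), and the third received 0.1% DMSO, the solvent (19 and 10). All 3 groups share the strain, the medium and the oil-free culture. The count table also holds GFP, which the labels do not mention.

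Histone mRNAs of this family are made in quantity while DNA is replicated. In most cells they end without a poly(A) tail, just past a stem-loop that the protein SLBP binds, and are trimmed there by a complex with the U7 small nuclear RNA. Some copies of these genes can also give longer transcripts that run past the stem-loop and carry a poly(A) tail, and oocytes store histone mRNA for the first divisions of the embryo. The libraries were primed with oligo-dT, which selects polyadenylated RNA, so the values describe what such priming recovers of each gene and not its whole mRNA pool.

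The stem-loop is shown for 6 members because its place in the annotated transcript sets apart the kinds of end found among the abundant members. Each line is the sense strand 5′ to 3′ from GENCODE transcripts, with the 16-base stem-loop in capitals.
Hist1h2bh: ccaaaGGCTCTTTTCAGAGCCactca
Hist2h3c1: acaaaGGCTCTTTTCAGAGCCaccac
Hist1h4c: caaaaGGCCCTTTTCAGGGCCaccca
Hist4h4: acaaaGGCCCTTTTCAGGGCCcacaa
Hist1h2ap: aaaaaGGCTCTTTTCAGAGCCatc
Hist1h2bk: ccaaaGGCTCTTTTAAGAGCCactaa
The capitals lie at chr13:23542928-23542943 (minus strand) for Hist1h2bh, chr3:96247327-96247342 (plus strand) for Hist2h3c1, chr13:23698089-23698104 (minus strand) for Hist1h4c, chr6:136803998-136804013 (minus strand) for Hist4h4, chr13:21833029-21833044 (minus strand) for Hist1h2ap and chr13:22036300-22036315 (plus strand) for Hist1h2bk. All of these transcripts have 1 exon, and in this family the stem-loop is known to lie in the 3′ untranslated region. The Hist1h2bh transcript runs 1214 bases past the stem-loop, those of Hist2h3c1 1162 or 1167, that of Hist4h4 2445 and that of Hist1h4c 454. The Hist1h2ap transcript stops 3 bases after it and that of Hist1h2bk 30 bases after it.

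The stem-loop was searched on the transcript strand in the forms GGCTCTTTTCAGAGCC, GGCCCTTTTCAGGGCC and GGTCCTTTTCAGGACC, each with any base allowed at position 10 from its 5′ end. It was found in 46 of 78 member transcripts (59.0%). Of the 141689 other transcripts 4 held it, those of H2afx, H2bfm, Trim17 and Gm20634. Among members, the forms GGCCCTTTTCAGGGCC and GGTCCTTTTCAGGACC were found in H4 transcripts alone. A poly(A) signal (AATAAA or ATTAAA, 6 to 40 bases before the end) was present in 21 of the 78 member transcripts (26.9%) and in 32.6% of the others. By gene, 22 members had a stem-loop 100 bases or more before the annotated end and held 54.0% of the members' summed level. Another 21 members had it within 100 bases of the end and held 26.5%, and 26 had none of these forms in the annotated transcript and held 19.5%. A missing form says only that these letters are not in the annotated transcript.

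Levels are in CPM, the counts of a gene per 1000000 counts assigned to genes in its library. Across all embryos the members' levels were uneven: 29 of 69 averaged under 1 CPM. Hist1h2bh, an H2B gene, averaged 49.7 CPM and alone made up 18.3% of the summed level of the members. In DMSO embryos of experiment 1 without the low libraries, Hist1h2ap led instead, with a median of 40.7% of the members' sum, against 17.8% for Hist1h2bh. Hist1h2ap, an H2A gene, averaged 39.6 CPM and made up 51.1% of H2A. Of H3 the most abundant were Hist2h3c1 (15.6 CPM), Hist2h3c2 (9.74 CPM) and Hist2h3b (9.58 CPM), of H4 Hist1h4c (13.8 CPM), Hist4h4 (13.8 CPM) and Hist1h4d (10.8 CPM), and of H1 Hist1h1a (10.8 CPM), with 70.6% of its class. Per length of transcript, taken from the annotation and not from the RNA present, Hist1h2ap led with 82.2 CPM per kb. Hist1h2bh followed with 29.6, Hist2h2aa1 with 21.4, Hist2h3b with 19.6 and Hist1h4c with 16.9 CPM per kb. Members near-identical in sequence share reads, which kallisto divides by estimate, so the split within Hist2h3b, Hist2h3c1 and Hist2h3c2, and within other families of copies, is uncertain.

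**Figure D1:**
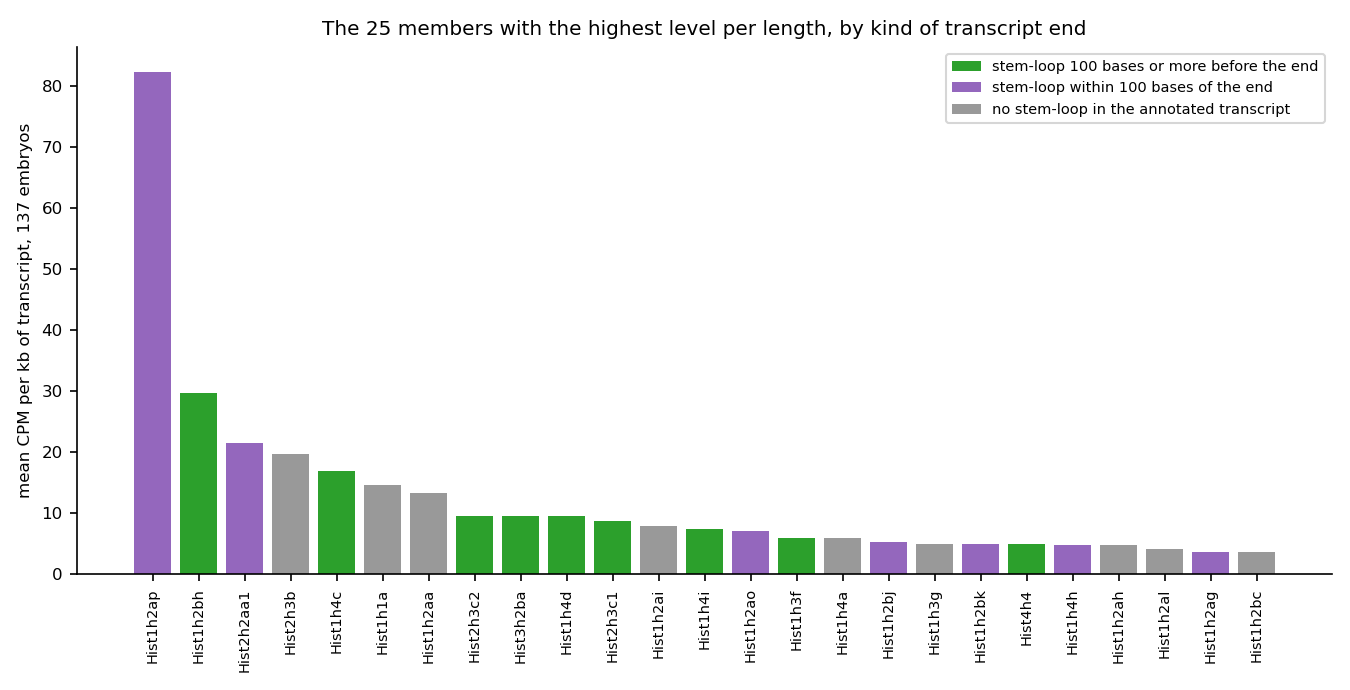
Mean level per kb of transcript (CPM per kb, all embryos, no error bars) of the 25 members with the highest values, coloured by where the stem-loop lies in the annotated transcript. Hist1h2ap stands at 82.2 CPM per kb with its stem-loop 3 bases from the end, and Hist1h2bh at 29.6 with 1214 bases after it. The 7.02 CPM per kb of Hist1h2ao fall to 2.45 without DMSO number 6 of experiment 1, a low library.

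The libraries held between 100513 and 9250466 gene counts (median 4631700). Few counts or few detected genes set 7 of them apart as low libraries, which were kept: with NR5A2 mRNA number 22 of experiment 1 and numbers 27 and 40 of experiment 2, with SR1848 number 8 and with DMSO numbers 6, 13 and 16 of experiment 1. In experiment 2, the libraries numbered 1 to 8 labelled SR1848 with NR5A2 mRNA held 82.1 to 156 CPM of Nr5a2 and at most 0.456 CPM of GFP. Those numbered 1 to 8 labelled DMSO held 88.9 to 5474 CPM of Nr5a2 and 47.7 to 7179 CPM of GFP. These 16 libraries go against their labels, so the comparisons rest on the other 121 libraries, among them 2 DMSO libraries of experiment 2, numbers 9 and 10. Of the injected libraries among the 121, 18 of 27 in experiment 1 and 25 of 32 in experiment 2 held at least 100 CPM of GFP. The 16 are described apart and values with them as labelled are given. The labelled stage was checked on a list of 2-cell markers, all 8 of which were measured, with medians of 928, 89.7 and 106 CPM for their sum in NR5A2 mRNA (0.577 to 2446), SR1848 and DMSO embryos of experiment 1. In experiment 2 the medians were 75.4 CPM with NR5A2 mRNA, numbers 9 to 40 (0 to 2792), 108.9 CPM with SR1848 and 129.5 CPM in DMSO numbers 9 and 10.

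Median sums of the H1, H2B, H3 and H4 members were more than 2-fold higher with SR1848 than with DMSO in both experiments, while H2A was closer, and with NR5A2 mRNA added the sums stayed near those of SR1848 alone. In experiment 1 the sum over all members had a median of 305.3 CPM with SR1848 and NR5A2 mRNA (108.9 to 588.5), 251.6 CPM with SR1848 (187.5 to 450.2) and 112.2 CPM with DMSO (68.5 to 356.2). In experiment 2 the medians were 277.1 CPM with NR5A2 mRNA, numbers 9 to 40 (0 to 613.8), 283.2 CPM with SR1848 (171.2 to 639.8), and 73.1 and 86.1 CPM in the 2 DMSO embryos. Of the embryos with NR5A2 mRNA 57 of 59 lay above the DMSO median of 111.3 CPM, as did all 41 with SR1848. Without the low libraries DMSO ran up to 159.9 CPM and all 40 remaining SR1848 embryos, from 171.2 CPM on, lay above it. CPM are shares of a library, so more histone RNA per embryo and less of other RNA cannot be told apart. No test was run on these sums, since the members were chosen with earlier results known.

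The classes differed in how far the groups stood apart, given here as medians for experiment 1. H3 had 59.9 CPM with NR5A2 mRNA, 41.7 with SR1848 and 8.91 with DMSO. H4 had 60.5, 50.5 and 12.3 CPM in the same order of groups, H2B had 91.8, 81.4 and 22.3, and H1, the linker histones, had 12.8, 13.5 and 5.39. H2A was nearly level as a sum, at 72.5, 55.2 and 53.7 CPM. Its largest member, Hist1h2ap, had medians of 24.6, 26.3 and 38.9 CPM over both experiments, in the same order of groups. Over all classes without Hist1h2ap and Hist1h2bh, the medians of experiment 1 were 193.8, 158 and 47.35 CPM. For H3, 56 of 59 embryos with NR5A2 mRNA and 40 of 41 with SR1848 lay above the highest of the 21 DMSO embryos (21.6 CPM). Without the low libraries, 55 of 56 with NR5A2 mRNA and 40 of 40 with SR1848 lay above the highest DMSO embryo for H2B, and 55 of 56 and 38 of 40 for H4. For H2A none of either group did, and SR1848 embryos ran from 16.6 to 298.7 CPM against 0 to 308.4 CPM in DMSO embryos. The high DMSO values lie in low libraries, and without these 25 of 56 embryos with NR5A2 mRNA and 16 of 40 with SR1848 lay above the highest DMSO value of 76.3 CPM.

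**Figure D2:**
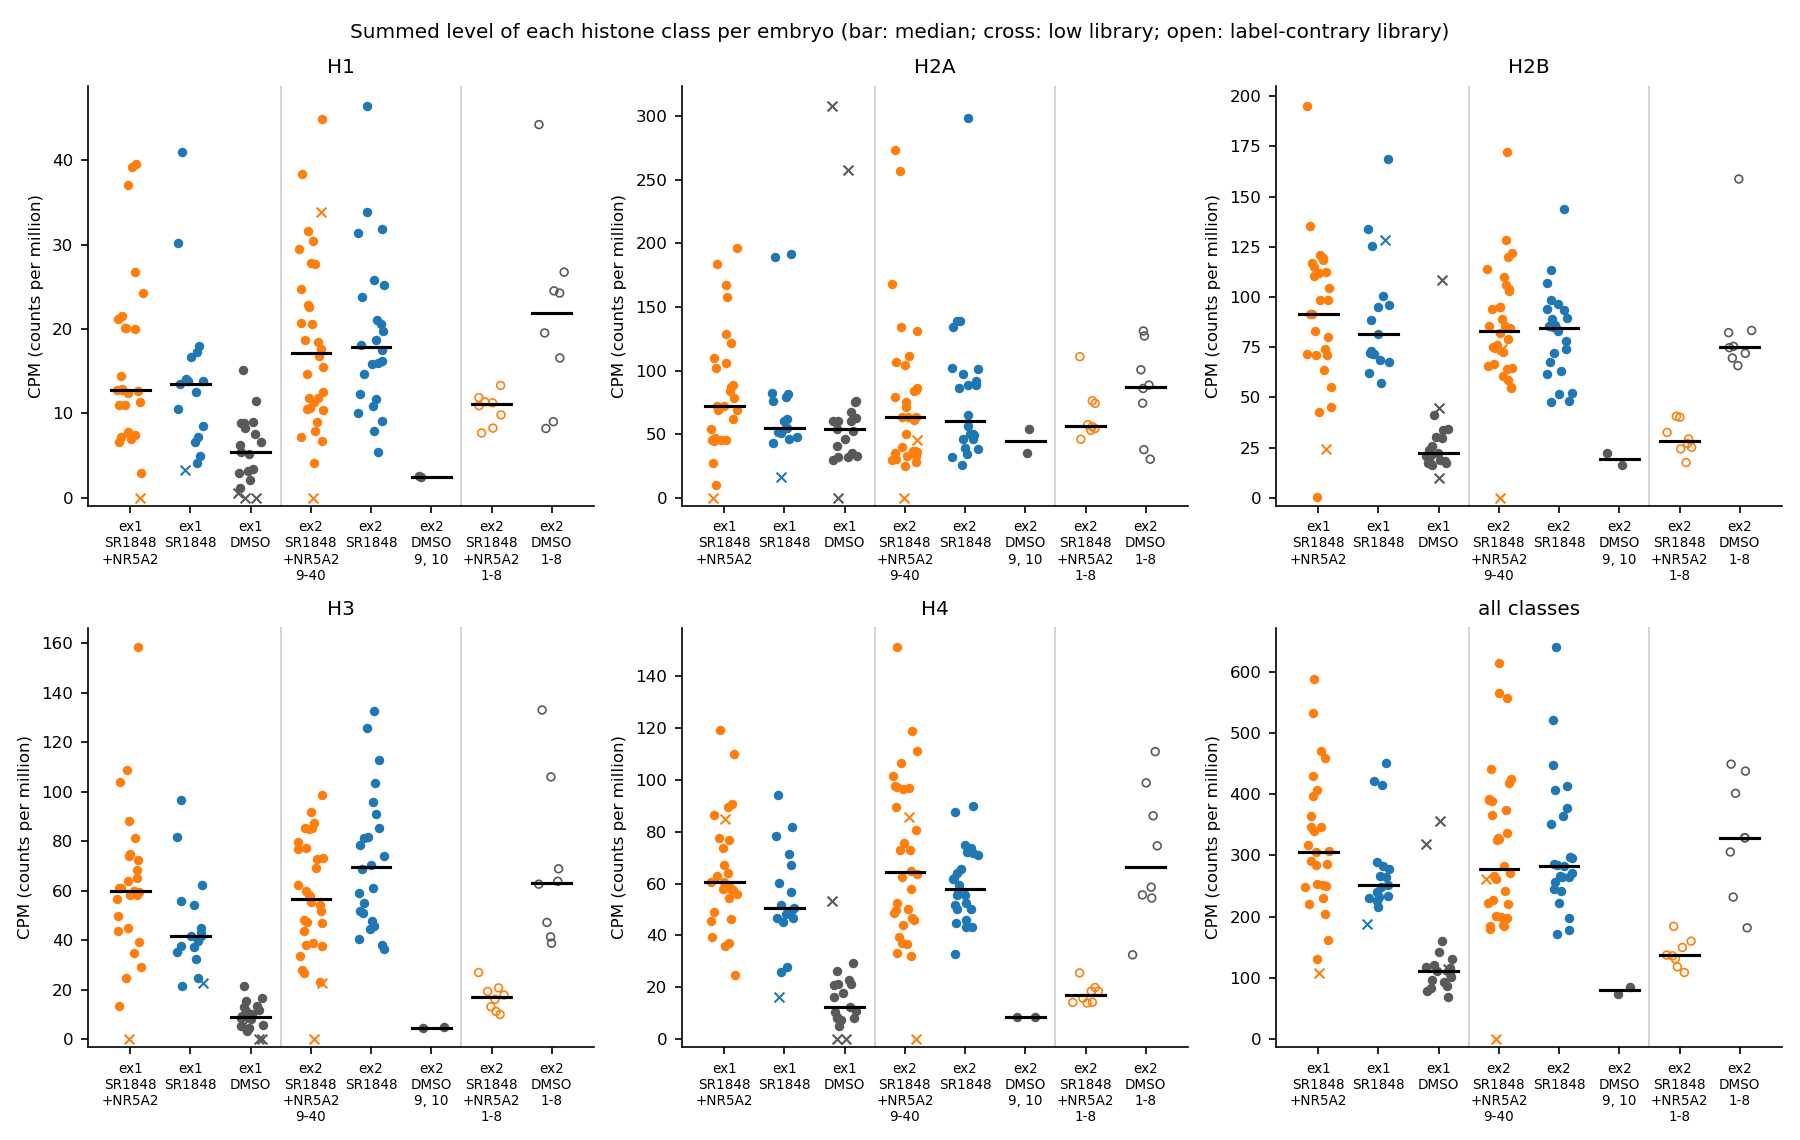
Summed CPM of each histone class and of all classes in each embryo (points, with bars for group medians), by treatment and experiment. Among the filled points, H3, H4 and H2B stand higher with SR1848, with or without NR5A2 mRNA, than with DMSO. The H2A sum, in which Hist1h2ap is the largest member, overlaps throughout. Open points are the 16 libraries that go against their labels. Over all classes, those labelled SR1848 with NR5A2 mRNA run from 108.9 to 184.2 CPM and those labelled DMSO from 181.8 to 448.8 CPM.

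SR1848 against DMSO asks how the inhibitor's presence from the zygote on changes each transcript. At an adjusted p under 0.05 (edgeR, quasi-likelihood, Benjamini-Hochberg over 14888 genes), 34 of the 39 members tested rose with SR1848 and none fell, where 41.5% of all genes tested rose and 32.8% fell. In H3 all 7 tested members rose (median log2 fold change 2.68), and in H2B all 10 (2.46). In H4 7 of 8 rose (2.33), in H1 3 of 4 (2.12) and in H2A 7 of 10 (2.15), the pseudogene Hist1h2al among them. The median over the 39 was 2.42 on the log2 scale, against 0.35 over all genes tested. The summed level of 19 oocyte and maternal markers was also higher with SR1848, with a median of 9164 CPM (5575 to 16240), against 5327 CPM with DMSO (49.7 to 7883) in experiment 1. Scaled to that sum, 17 of the 39 members were higher and 2 lower, where 19.5% of genes were higher and 50.4% lower, and the members' median was 1.29 log2, against -0.91 over all genes. Without that scaling, by the kind of end, 15 of 16 tested members with a stem-loop 100 bases or more before the end rose (median 2.41), 7 of 10 with one within 100 bases (2.71) and 12 of 13 with none found (2.18). DESeq2 called 31 of the 39 higher and none lower, where it called 34% of genes higher and 40.5% lower. Of 69 members, 30 did not pass the filter on low counts, with means of 0.0508 to 1.03 CPM. A member can pass through the group where it is high, so these counts describe the tested members only. Without the filter 51 of 69 were called higher and 2 lower (Hist1h4m and Hist2h2aa2, named after their values were seen), where 27.2% of 31129 genes were higher and 24.9% lower. Hist1h4m holds its highest value, 18.7 CPM, in a low library, DMSO 16 of experiment 1. The highest value of Hist2h2aa2, 12.9 CPM, lies in low library 27 of experiment 2 with NR5A2 mRNA, which is in neither group of this comparison.

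Within experiment 1, which holds none of the 16 libraries, 25 of 27 tested members were called higher with SR1848 and none lower, where 36.3% of 13608 genes were higher and 31.7% lower. With the 16 libraries as labelled the count was 20 of 37, where 33.1% of genes were higher and 36% lower. In experiment 2 as labelled it was 0 of 43 (DMSO then being mostly libraries with GFP), with 1 member lower and 2 at an unadjusted p under 0.05, where 4.51% of genes were higher and 19.8% lower. In experiment 2 without the 16, with 2 DMSO embryos, it was 18 of 53, where 11.5% of 18659 genes were higher and 20.6% lower.

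Hist1h4c, an H4 gene in the large cluster of chromosome 13, had the smallest p. It had a median of 17.2 CPM in SR1848 embryos of experiment 1 (0 to 32.1), against 1.59 CPM in DMSO embryos (0 to 4.59). In experiment 2 it had 18.0 CPM with SR1848 (8.30 to 34.5), against 0 and 0.955 CPM in the 2 DMSO embryos. Without the low libraries all 40 SR1848 embryos lay above the highest of 18 DMSO embryos. The fitted change with the low libraries kept was 3.54 log2 (SE 0.34, edgeR adjusted p = 1.72e-17).

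Hist1h2aa, the germ-cell H2A variant TH2A, is made in testis and oocytes. It had a median of 8.44 CPM with SR1848 in experiment 1 (0 to 12.8), against 0.216 CPM with DMSO (0 to 2.05), and rose by 3.85 log2 (SE 0.40, edgeR adjusted p = 2.26e-15). In experiment 2 it had 5.54 CPM with SR1848 (1.27 to 14.2), against 0 and 0.116 CPM with DMSO, so 39 of 41 SR1848 embryos exceeded every DMSO embryo. Its neighbour Hist1h2ba, the H2B variant TH2B, was too low to be tested in the main comparison: 0.418 CPM with SR1848 (0 to 2.49), against 0.268 CPM with DMSO (0 to 1.12) in experiment 1. Without the low libraries it was tested and called higher, by 1.23 log2 (edgeR adjusted p = 0.0108, and 0.0162 without the filter). Hist1h1t, the testis H1, had a count in 9 embryos and at most 2.33 CPM.

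Hist4h4, an H4 gene on chromosome 6 outside the clusters, had 13.5 CPM with SR1848 in experiment 1 (5.84 to 25.2), against 3.32 CPM with DMSO (0 to 8.31), a change of 2.23 log2 (SE 0.24, edgeR adjusted p = 6.27e-15). Hist1h2bh had 64.1 CPM with SR1848 (39.0 to 157), against 16.4 CPM with DMSO (0 to 108), where the DMSO value over 100 is a low library. Its change was 1.91 log2 (SE 0.26, edgeR adjusted p = 7.46e-11), and all 41 SR1848 embryos lay above the DMSO median. Scaling to mitochondrially encoded mRNAs turned its sign (-8.14), while the median over the tested members stayed at 2.08.

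Hist2h3c1, an H3 gene, had 11.7 CPM with SR1848 in experiment 1 (0 to 55.0), against a DMSO median of 0 (0 to 8.97), and 21.4 CPM in experiment 2 (15.7 to 48.3), against 0 and 2.08 CPM. It rose by 4.08 log2 (SE 0.63, edgeR adjusted p = 8.69e-09). Its copies Hist2h3b and Hist2h3c2 rose by 2.62 and 1.93. The H2A gene Hist2h2aa1 rose by 2.88, the H4 gene Hist1h4d by 1.48, and the H2B genes Hist3h2ba and Hist1h2bc by 1.95 and 2.16. Hist1h1a, the leading linker histone, had 9.29 CPM with SR1848 (0 to 35.6), against 2.37 CPM with DMSO (0 to 10.1) in experiment 1, and rose by 1.83 log2 (SE 0.34, edgeR adjusted p = 1.44e-06). The other linker histones Hist1h1d and Hist1h1c rose by 2.54 and 2.40 from low levels. Hist1h2bm, an H2B gene named after its values were seen, had no count in any of the 21 DMSO embryos and was at least 52.3-fold higher with SR1848 (against 3 counts over the group).

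The 5 tested members without a call were Hist1h2ap, Hist1h2ag (0.64, SE 0.82), Hist1h2ao, Hist1h1b (0.01, SE 0.84) and Hist1h4i (0.18, SE 0.64), of which Hist1h2ag, Hist1h2ao and Hist1h1b are named after their values were seen. Hist1h2ap, the member with the highest level per length, had 26.3 CPM with SR1848 in experiment 1 (0.0148 to 136), against 38.9 CPM with DMSO (0 to 237). In experiment 2 it had 26.4 CPM with SR1848 (1.43 to 218), against 28.6 and 52.1 CPM with DMSO. The groups overlap, and its fitted change was 0.18 log2 (SE 0.39, edgeR adjusted p = 0.676). Its share of the members' sum had a median of 10.8% with SR1848 and 40.7% with DMSO in experiment 1 without the low libraries. In experiment 2 the share was 9.28% with SR1848 and 49.8% with DMSO. Hist1h2ao had 302 CPM in 1 low DMSO library (number 6 of experiment 1) and at most 19.4 CPM elsewhere. Its change was -0.39 log2 with that library and +5.05 without the low libraries, where all but 1 of the 18 DMSO embryos were at 0 and the highest had 0.46 CPM.

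**Figure D3:**
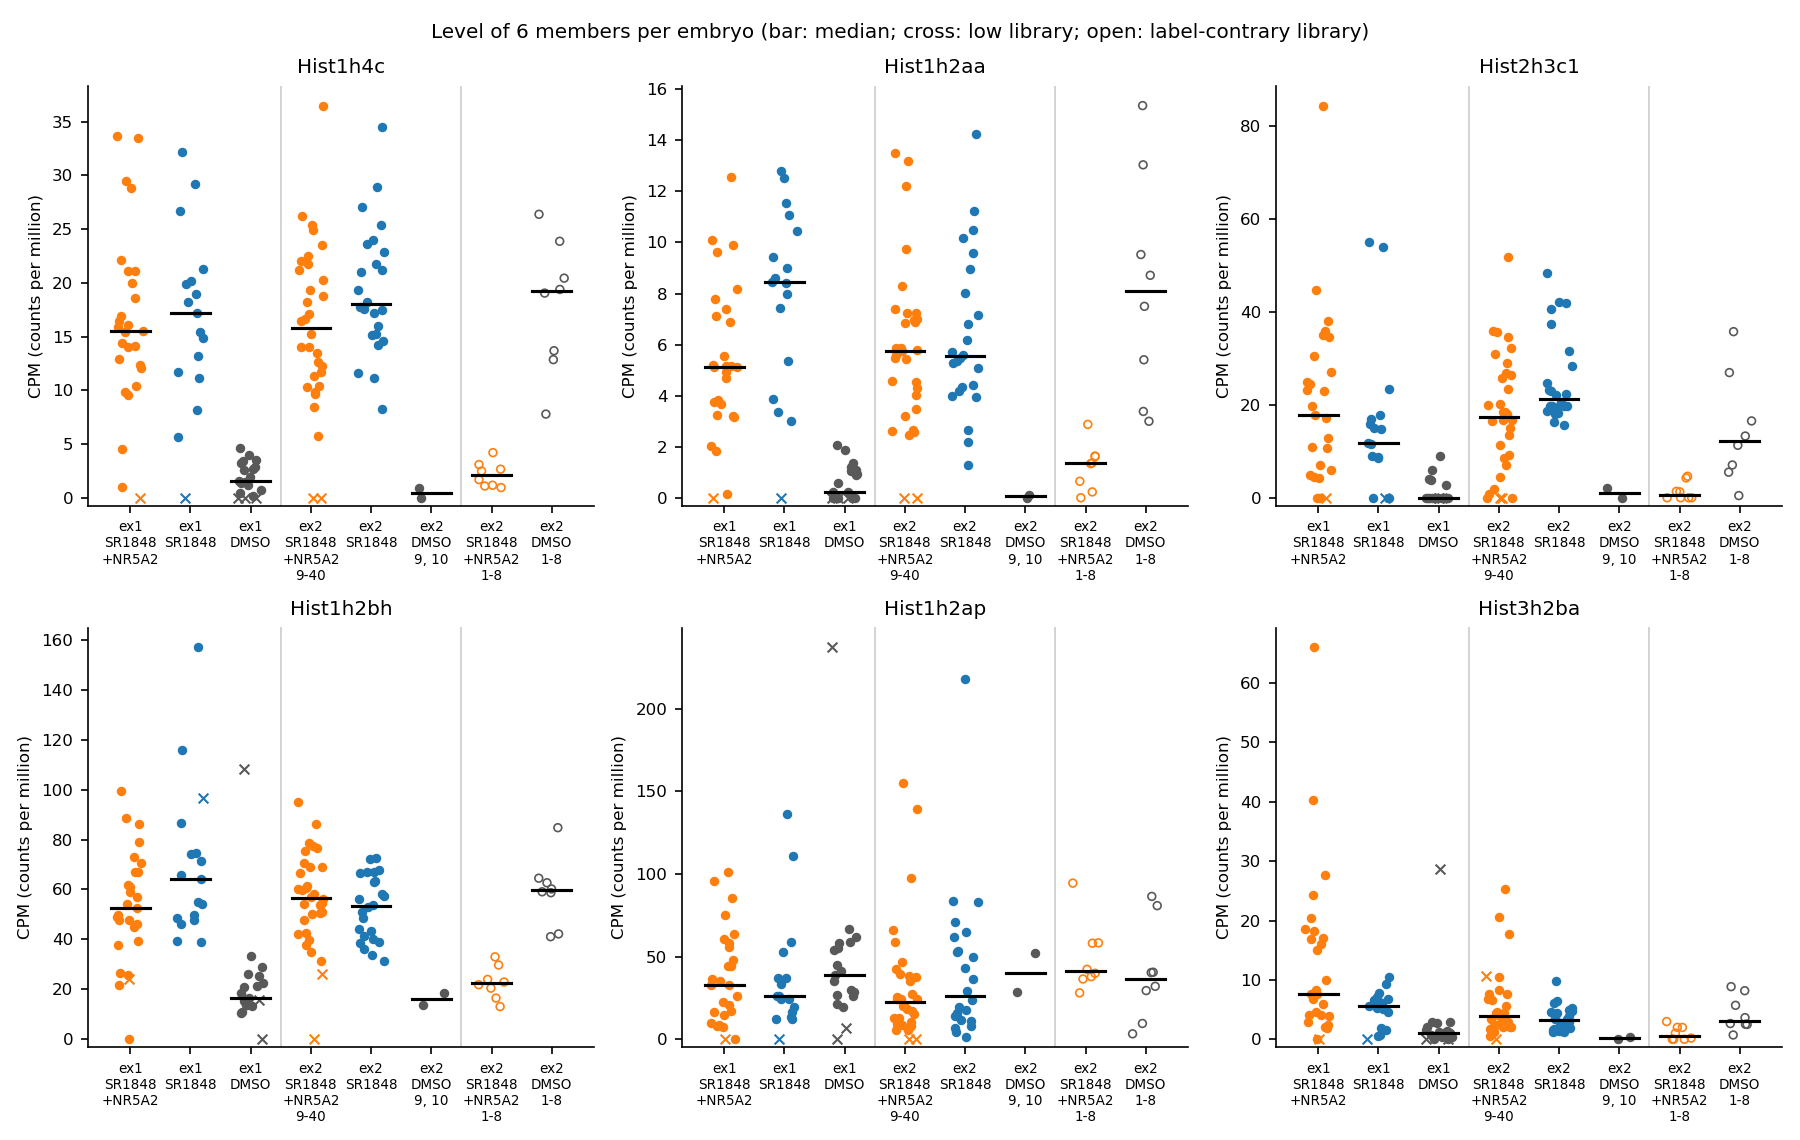
Level in CPM of 6 members in each embryo (points, with bars for group medians), by treatment and experiment. Open points are the 16 libraries that go against their labels. Apart from these, Hist1h4c, Hist1h2aa and Hist2h3c1 stand near 0 with DMSO and higher with SR1848, with or without NR5A2 mRNA. Hist1h2ap overlaps in all groups.

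The comparison of NR5A2 mRNA with SR1848 alone addresses what the receptor's mRNA alters while the inhibitor is present. Few members moved: 4 of 39 rose and 2 fell by edgeR's quasi-likelihood test (Benjamini-Hochberg over 14888 genes, 0.05), where 21.8% of all genes tested rose and 12.4% fell. The median over the members was 0.10 log2, against 0.02 over all genes. None of the 4 tested H1 members or the 7 of H3 was called, and 1 of 10 in H2A, 1 of 8 in H4 and 4 of 10 in H2B were.

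Hist3h2ba, an H2B gene on chromosome 11, had 7.63 CPM with NR5A2 mRNA in experiment 1 (0 to 66.0), against 5.65 CPM with SR1848 alone (0 to 10.5). In experiment 2 it had 3.91 CPM (0 to 25.3), against 3.17 CPM (1.15 to 9.77). It rose by 0.92 log2 (SE 0.30, edgeR adjusted p = 0.0107), and the groups overlap, with the highest embryos all among those with NR5A2 mRNA. Hist1h2bp rose by 2.32 log2 (SE 0.56, edgeR adjusted p = 5.31e-04), with a median of 0.57 CPM with NR5A2 mRNA in experiment 1 (0 to 27.9), against 0 CPM with SR1848 (0 to 3.42). In experiment 2 its median was 0.283 CPM with NR5A2 mRNA (0 to 18.8), against 0.610 CPM with SR1848 (0 to 8.15), and in that experiment alone it was not called (1.75 log2, edgeR adjusted p = 0.0539). There 6 of 32 embryos with NR5A2 mRNA lay above every SR1848 embryo, and 4 of these 6 held under 100 CPM of GFP. Hist1h4i rose by 1.35 (SE 0.46) and Hist1h2ag by 1.62 (SE 0.57). Hist1h2bk, whose stem-loop is printed above, had 2.12 CPM with NR5A2 mRNA (0 to 7.83), against 3.11 CPM with SR1848 (0 to 5.75) in experiment 1. It fell by 0.70 log2 (SE 0.28, edgeR adjusted p = 0.041), and Hist1h2bq fell by 1.66 (SE 0.49).

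The calls did not hold in every setting. In experiment 1 alone none of 27 tested members was called (3 of the 6 called members were tested there), where 13.3% of genes rose and 5.1% fell, and 2 had an unadjusted p under 0.05. Without the low libraries of that experiment 2 of 26 rose, where 23.6% of genes rose and 8.98% fell. With injected libraries of at least 100 CPM of GFP 1 of 34 rose, where 17.2% of genes rose and 11.8% fell. With those under 100 CPM 6 of 35 rose and 2 fell, where 23.7% of genes rose and 15.6% fell. Several members that had risen with SR1848 had no call here: Hist1h4c (-0.17, SE 0.20), Hist1h2bh (-0.14, SE 0.17), Hist1h2aa (-0.28, SE 0.23), Hist4h4 (0.17, SE 0.16) and Hist2h3c1 (-0.15, SE 0.37). In the authors' deposited table of this comparison, per transcript, 65 of 77 member entries had an adjusted p. Of these 2 were marked UP, both of Hist1h2bp, and 4 DOWN, of Hist1h2aa, Hist1h4c, Hist1h2bq and Hist1h2bk. The share marked over all entries was not counted. Some marked entries had deposited changes near 0, such as -2.66e-05 log2 for Hist1h4c. Others were larger, with -0.84 for Hist1h2bk and 1.75 for 1 entry of Hist1h2bp.

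**Figure D4:**
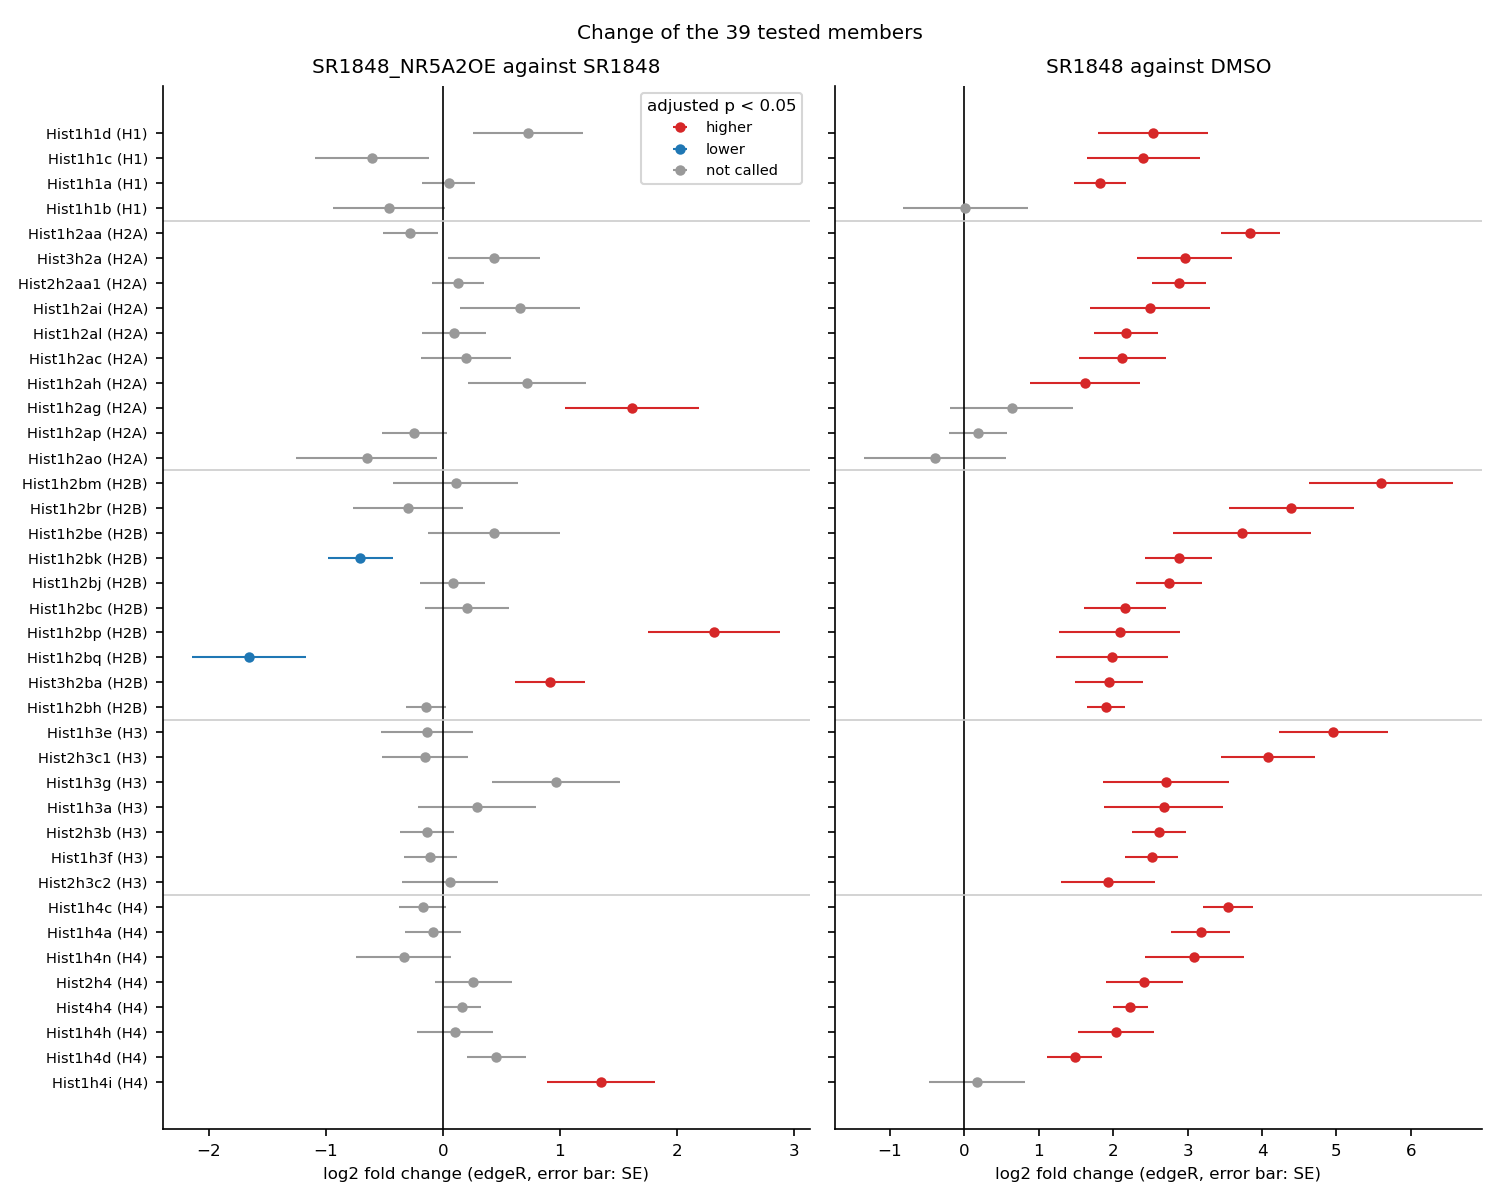
Fitted log2 fold change (edgeR, error bars SE) of the 39 tested members, grouped by class, for SR1848 with NR5A2 mRNA against SR1848 (left) and SR1848 against DMSO (right). Red and blue mark adjusted p under 0.05. On the right 34 members are higher and none lower, on the left 4 are higher and 2 lower. The fitted value of Hist1h2bm on the right depends on the prior count, since DMSO is at 0.

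SR1848 with NR5A2 mRNA against DMSO shares its DMSO embryos with the first comparison and its injected embryos with the second. Of 39 members 35 rose and none fell by edgeR's quasi-likelihood test, where 44% of genes rose and 29.8% fell, with a median of 2.48 log2 against 0.51 over all genes. Hist1h4c had 15.5 CPM with NR5A2 mRNA in experiment 1 (0 to 33.7), against 1.59 CPM with DMSO, and Hist1h2aa had 5.11 CPM (0 to 12.6), against 0.216 CPM. Their fitted changes were 3.37 (SE 0.32) and 3.57 (SE 0.39). Hist1h2ap was again not called (-0.06, SE 0.36). Within experiment 1, 26 of 27 rose, where 37.1% of genes rose and 29.7% fell.

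Whether the change with NR5A2 mRNA against SR1848 differed between the experiments was tested by an interaction term in edgeR. No member of 39 was called, and none had an unadjusted p under 0.05, where 3.59% of 14888 genes were called. The lowest adjusted p of a member was 0.406. No member was called with all libraries as labelled, without low libraries, with relative log expression or with total counts, where 1, 2, 2 and 1 had an unadjusted p under 0.05. Such a p does not show that the experiments are alike.

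The 16 libraries that go against their labels differed from their labelled groups in the histone sums. Those labelled SR1848 with NR5A2 mRNA, numbers 1 to 8, had a median of 136.8 CPM over all members (108.9 to 184.2), above the 73.1 and 86.1 CPM of DMSO numbers 9 and 10 of the same experiment. Their H1 sums ran from 7.68 to 13.3 CPM, H3 from 10.0 to 27.0 CPM and H4 from 14.0 to 25.6 CPM, each above both of those DMSO embryos (at most 2.55, 4.87 and 8.76 CPM). They overlap the DMSO embryos of experiment 1 without the low libraries. Those ran from 1.19 to 15.15 CPM for H1, 3.28 to 21.64 for H3, 5.18 to 29.41 for H4 and 68.5 to 159.9 over all members. The libraries labelled DMSO, numbers 1 to 8, had a median of 328.7 CPM over all members (181.8 to 448.8), against 277.1 CPM with NR5A2 mRNA, numbers 9 to 40. Hist1h4c ran from 0.952 to 4.20 CPM in the set labelled SR1848 with NR5A2 mRNA and from 7.79 to 26.4 CPM in the set labelled DMSO, with no overlap. The share of Hist1h2ap in the members' sum had a median of 34.3% in the set labelled SR1848 with NR5A2 mRNA and 10.1% in the set labelled DMSO.

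Hist2h2be, an H2B gene of chromosome 3 (96221119 to 96223738 on GRCm38), behaved unlike the members. It had 1011 CPM in embryos with NR5A2 mRNA in experiment 1 (0 to 4107), against 0 CPM as the median with SR1848 (at most 26.2) and with DMSO (at most 0.61). In experiment 2 it had 1409 CPM with NR5A2 mRNA (0 to 3303), against at most 2.30 CPM with SR1848. In the 16 libraries it had at most 0.23 CPM in the set labelled NR5A2 mRNA and 20.2 to 2770 CPM in the set labelled DMSO. Of the 52 embryos with at least 100 CPM of GFP, 49 had at least 100 CPM of Hist2h2be, and none of the 85 others did. In the 49 of the 52 that are not low libraries, Hist2h2be stood at 0.287 to 0.493 of the GFP level, with a median ratio of 0.394. Of the low ones, 2 DMSO libraries had 147 and 318 CPM of GFP and no Hist2h2be. The fitted change for NR5A2 mRNA against SR1848 was 11.39 log2 (SE 0.77). No p is given for it, since the relation of Hist2h2be to GFP was known when the gene was set apart. Reads of Hist2h2be were left out of every sum above. For SR1848 against DMSO it was called at 2.24 (SE 0.97, edgeR adjusted p = 0.0315), where low library SR1848 8 of experiment 1 held the 26.2 CPM, and without the low libraries it was 1.44 and not called.

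**Figure D5:**
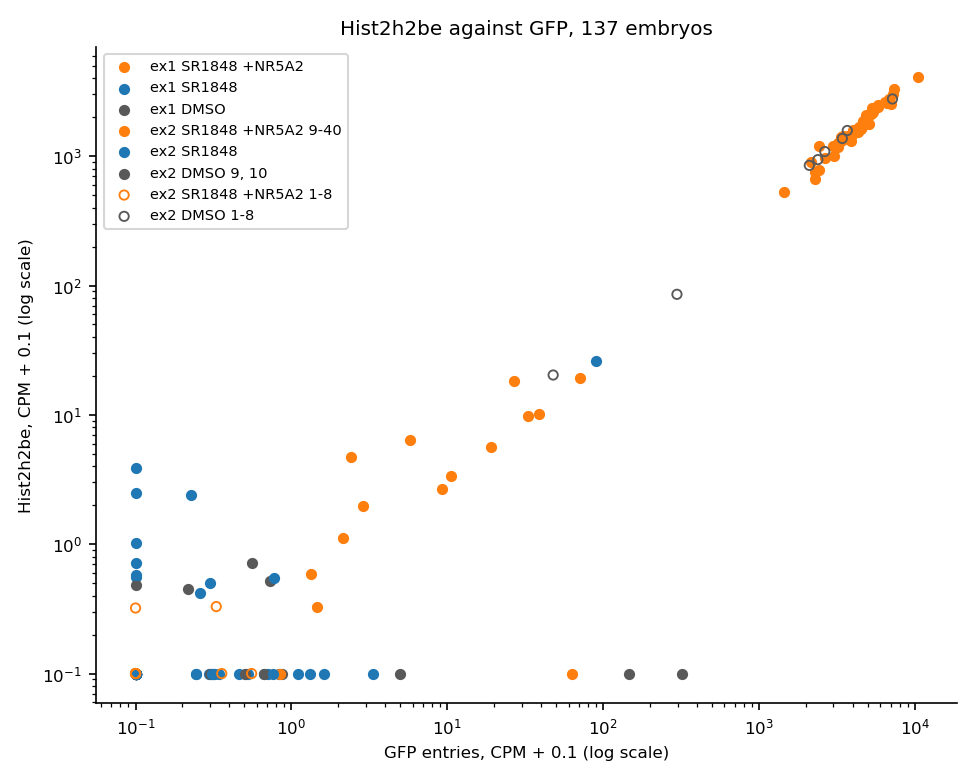
Hist2h2be against GFP (both CPM + 0.1, log axes) in all embryos, by treatment and experiment. Open points are the 16 libraries that go against their labels. At high GFP the points lie in a narrow band, and those labelled DMSO, numbers 1 to 8 of experiment 2, lie in the same band.

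Promoters were looked up because most tested members moved together. RefSeq windows from 250 bases before to 50 after the start (GRCm38.p6) were found for 54 of 69 members, 55 windows in all. The window of Hist1h2aa, at chr13:23934187-23934486 on the plus strand, overlaps that of Hist1h2ba on the minus strand, so the TH2A and TH2B genes face away from each other across it. Capitals mark the CCAAT box, the TATA box (TATAAA) and the octamer (ATTTGCAT), each read on either strand. The window of Hist1h1a, at chr13:23763418-23763717 on the plus strand, is shown beside it as an H1 promoter without the octamer.
Hist1h2aa: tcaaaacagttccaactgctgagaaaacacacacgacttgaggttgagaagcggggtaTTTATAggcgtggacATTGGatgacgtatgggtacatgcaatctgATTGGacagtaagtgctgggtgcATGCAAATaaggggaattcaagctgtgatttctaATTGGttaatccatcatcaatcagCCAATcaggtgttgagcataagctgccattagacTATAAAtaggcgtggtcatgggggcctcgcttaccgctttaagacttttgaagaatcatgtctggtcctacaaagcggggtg
Hist1h1a: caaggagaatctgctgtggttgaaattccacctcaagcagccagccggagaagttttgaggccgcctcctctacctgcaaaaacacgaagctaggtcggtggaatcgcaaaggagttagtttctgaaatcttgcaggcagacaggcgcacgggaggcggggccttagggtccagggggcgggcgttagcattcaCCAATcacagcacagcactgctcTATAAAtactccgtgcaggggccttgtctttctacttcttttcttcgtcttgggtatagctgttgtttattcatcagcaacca

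The letters CCAAT, searched on both strands, were in 48 of 55 member windows (87.3%) and in 37.3% of all other RefSeq windows of the same length. Every H1, H2A, H2B and H3 window had them, and 3 of 10 H4 windows did. TATAAA was in 31 of 55 (56.4%), against 13.5% of the others. The octamer ATTTGCAT, the sequence bound by the factor POU2F1 in H2B promoters, was in 7 of 15 H2A and 7 of 14 H2B windows, in no H1, H3 or H4 window, and in 1.70% of all others. The letters AAGGTCA, a form of the half-site that NR5 receptors bind, were in none of the 55 windows and in 4.73% of the others, and AAGGCCA was in 5 (9.09%), against 6.20%. A match is a description of letters and not a site, and no match says only that these letters are not in this window.

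Replacement histones, which are mostly made outside replication from polyadenylated mRNA, moved in both directions. The list also holds H2afx and H2bfm, which have transcripts with the stem-loop. Of 11 tested from a list of 15, 5 rose and 5 fell with SR1848 against DMSO, where 41.5% of all genes tested rose and 32.8% fell, with a median of -0.05 log2 against 0.35 over all genes. H2afv, an H2A.Z form, had 12.7 CPM with SR1848 in experiment 1 (1.63 to 29.3), against 153 CPM with DMSO (0 to 233), and fell by 2.93 log2 (SE 0.32, edgeR adjusted p = 1.08e-14). Cenpa, the centromeric H3, fell by 2.59 (SE 0.30), with 28.8 CPM against 310 CPM. H2afy, macroH2A1, rose by 2.01 (SE 0.35), with 5.58 CPM against 1.64 CPM. With NR5A2 mRNA against SR1848 3 of 11 rose and 2 fell, where 21.8% of genes rose and 12.4% fell. H2afy was among those that fell, by 0.57. H2afz, the other H2A.Z form, is named after its values were seen: it had 885 CPM with NR5A2 mRNA, 82.9 CPM with SR1848 and 991 CPM with DMSO in experiment 1, with changes of 2.38 (SE 0.36) for NR5A2 mRNA against SR1848 and -2.48 (SE 0.45) for SR1848 against DMSO.

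Of 31 tested genes of histone mRNA processing and transcription, from a list of 33, 9 rose and 14 fell with SR1848 against DMSO, where 41.5% of all genes tested rose and 32.8% fell. Their median was -0.42 log2, against 0.35 over all genes. Ccne1, the cyclin whose kinase switches histone genes on at the start of S phase, had 21.2 CPM with SR1848 in experiment 1 (10.4 to 118), against 441 CPM with DMSO (21.1 to 733), and fell by 3.38 log2 (SE 0.32, edgeR adjusted p = 3.68e-17). Coil, the scaffold of Cajal bodies, fell by 4.07 (SE 0.42), with 3.34 CPM against 97.4 CPM. Hinfp, a transcription factor for H4 genes, fell by 3.34 (SE 0.37), with 8.71 CPM against 158 CPM. Slbp, the stem-loop binding protein, and Npat, the coactivator at histone loci, are named for their role after their values were seen. Slbp had 154 CPM with SR1848 in experiment 1 (82.4 to 1353), against 512 CPM with DMSO (14.7 to 1029), and fell by 0.78 log2 (SE 0.26). Npat had 41.9 CPM (1.20 to 92.0), against 244 CPM (0 to 534), and fell by 1.84 log2 (SE 0.31). With NR5A2 mRNA against SR1848, 4 of 31 rose and 5 fell, where 21.8% of genes rose and 12.4% fell. Ccne1 rose by 1.56 (SE 0.25), with 106 CPM against 21.2 CPM in experiment 1.

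Of 26 histone chaperones, the proteins that carry histones to DNA, 11 fell and 6 rose with SR1848 against DMSO, where 32.8% of all genes tested fell and 41.5% rose. Their median was -0.10 log2, against 0.35 over all genes. Set had 16.5 CPM with SR1848 in experiment 1 (2.82 to 56.7), against 677 CPM with DMSO (3.01 to 1117), and fell by 4.47 log2 (SE 0.37, edgeR adjusted p = 1.76e-20). Anp32e, an H2A.Z chaperone, fell by 2.73 (SE 0.28). Npm2, nucleoplasmin of the oocyte, rose by 2.82 (SE 0.29), with 236 CPM (4.88 to 398) against 40.1 CPM (0 to 70.6). With NR5A2 mRNA against SR1848, 3 rose and 9 fell, where 21.8% of genes rose and 12.4% fell.

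Other transcripts moved beside these counts. The 19 oocyte and maternal markers, all measured, did not move as one. With SR1848 the median was higher than with DMSO for 16 of them and lower for 3 (Dppa3, Khdc3 and Zp3), in both experiments. In experiment 1 Btg4 had 2433 CPM with SR1848, against 378 CPM with DMSO, and Bmp15 1756 CPM, against 277 CPM. Dppa3, the most abundant of them with DMSO, had 796 CPM with SR1848, against 2878 CPM with DMSO. With NR5A2 mRNA the sum of the 19 had a median of 7296 CPM in experiment 1 (1508 to 12790). Scaled to that sum, 2 replacement histones were higher and 6 lower, 2 processing genes higher and 21 lower, and 2 chaperones higher and 22 lower with SR1848 than with DMSO. Under this scaling 19.5% of all genes tested were higher and 50.4% lower. Npm2, a chaperone, is itself among the 19 markers. The sum of 10 cumulus and granulosa markers had a median of 10.6 CPM with SR1848 (0.255 to 53.7), against 84.0 CPM with DMSO (0 to 219), of which Amhr2 gave 76.1 CPM in DMSO embryos, while Foxl2, Fshr and Ptx3 were at 0 in every DMSO embryo of experiment 1. The sum of 6 sperm and spermatid markers had 5.51 CPM (3.13 to 21.5), against 0.755 CPM (0 to 2.77), with Tnp1 and Tnp2 at 0 in both groups. The part of these in the histone values was not tested.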

How the data were processed

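Single mouse embryos at the 2-cell stage were profiled by SmartSeq2 with oligo-dT priming, per the labels' protocols. The tools named in the submitters' processing notes are bcl2fastq, Trim Galore 0.6.2, kallisto 0.46.1, DESeq2 1.32.0 and R 3.5.1. Of the builds they list, mm10 and hg19, the role of hg19 was not stated. The authors deposited expected counts, as kallisto estimates them, for 119358 entries (26.3% of values not whole, tolerance 1e-9). The authors' deposited table for SR1848 with NR5A2 mRNA against SR1848 gives log2 fold changes, p-values and a mean signal of normalized counts per transcript, per the file headers.

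Entries were paired with genes through GENCODE M21 (116682) or the authors' table (892). Another 1779, with 0.656% of counts, were not paired, and 5 (GFP, SINE and an Nr5a2 sequence, 0.158%) were kept apart. Counts were summed by symbol and rounded. The groups were compared in edgeR 4.0.16 (R 4.3.3; quasi-likelihood test, TMM, filterByExpr, treatment and experiment as terms), with Benjamini-Hochberg adjustment over 14888 genes at 0.05, in 121 libraries. The method was also run on simulated data in which few genes were changed, unlike in these comparisons, so that run does not test the scaling. Low libraries had under 0.2 of the median total or under 0.5 of the median number of detected genes. Condition names in the count table's columns are codes, matched to a group by the replicate numbers of each experiment. Each library is 1 embryo. Shared parents are not recorded, so p-values measure the spread between embryos, and the protocol has no molecular identifiers and is not stated to keep strand.

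The members and gene lists were chosen with earlier results of these data known. Named members are the 3 most abundant of each class, the 3 with the smallest p in each direction in the comparisons SR1848 against DMSO and NR5A2 mRNA against SR1848, Hist2h2be, the testis genes Hist1h1t, Hist1h2aa and Hist1h2ba and any member at 0 in every library (there was none), and of each other list the 3 genes with the smallest p. Alternatives covered the 16 libraries, single experiments, low libraries, scaling, filter, DESeq2 1.42.0, the replicate block and the level of GFP. Protein sequences were not used here.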

Additional observations from a re-analysis of the deposited data

Results flagged for a closer look

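In the DMSO group of experiment 2 as labelled (10 libraries), 5 values stood far from the others by Dixon's test, of 27 groups of values tested, where chance gives about 1 in 20. H2B had 158.7 CPM in library 2, with a group median of 73.3 CPM and a next value of 83.3 CPM. Hist1h2bc, an H2B gene, had 33.8 CPM in the same library, with a next value of 7.66 CPM. Hist1h1d had 2.49 CPM in library 1 (next value 1.10 CPM), Hist1h1c 7.54 CPM in library 5 (next 3.97 CPM) and Hist1h2bq 2.27 CPM in library 6 (next 1.01 CPM). All 5 lie in libraries numbered 1 to 8, which hold GFP against their label.

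Those 8 libraries were left out of the comparisons and had signal in both histone measures. Hist2h2be had a median of 1013 CPM, and the sum over all classes had a median of 328.7 CPM.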

How the results depend on the processing

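Counts of called members were recomputed under each alternative, where the number tested of the 69 differs. Experiment 1 without low libraries, experiment 2 as labelled and injected libraries under 100 CPM of GFP were added after seeing the data. For SR1848 against DMSO 34 were higher: 20 with all libraries as labelled, 18 in experiment 2 without the 16 libraries, 17 when scaled to maternal transcripts, 22 in experiment 1 without low libraries and 0 in experiment 2 as labelled. None was lower, and 2 were without the filter, 1 with total counts, 2 when scaled to mitochondrial mRNAs, 2 when scaled to maternal transcripts and 1 in experiment 2 as labelled. For NR5A2 mRNA against SR1848 4 were higher: 0 with the replicate block, 0 in experiment 1, 2 in experiment 2 without the 16, 1 when scaled to mitochondrial mRNAs, 19 to maternal transcripts, 1 with at least 100 CPM of GFP, 2 in experiment 1 without low libraries and 1 in experiment 2 as labelled. There 2 were lower: 1 with the replicate block, 1 with all libraries, 0 in experiment 1, 1 in experiment 2 without the 16, 1 without low libraries, 12 when scaled to mitochondrial mRNAs, 1 to maternal transcripts, 0 with at least 100 CPM of GFP and 0 in experiment 1 without low libraries. For NR5A2 mRNA against DMSO 35 were higher: 57 without the filter, 17 in experiment 2 without the 16 and 0 as labelled. None was lower, and 2 were without the filter, 1 with total counts, 4 when scaled to mitochondrial mRNAs and 1 to maternal transcripts. With each scaling and with the replicate block 39 members were tested, without the filter all 69, and in experiment 1 without low libraries 26. For SR1848 against DMSO, 36.9% of all genes were higher and 38.6% lower in experiment 1 without low libraries. In that comparison 36.6% were higher and 37.3% lower with total counts, and 32.5% and 39.6% when scaled to mitochondrial mRNAs. For NR5A2 mRNA against SR1848, 52.8% of all genes were higher and 2.36% lower when scaled to maternal transcripts, 13.1% and 42.9% when scaled to mitochondrial mRNAs, 12.9% and 5.8% with the replicate block, and 22.7% and 8.61% in experiment 2 without the 16. With all libraries as labelled (37 members tested) 29.5% of genes were higher and 12.9% lower in that comparison. Without low libraries (41 members tested) these shares were 29.8% and 14.8%. In experiment 2 as labelled (43 members tested) they were 29.1% and 11.3%. For NR5A2 mRNA against DMSO, 32.9% were higher and 20.2% lower without the filter, and 11.2% and 17.1% in experiment 2 without the 16, where 53 members were tested. The shares there were 39.3% higher and 33.4% lower with total counts, and 22.5% and 44.2% when scaled to mitochondrial mRNAs. Scaled to maternal transcripts they were 31.4% and 37.2%, and in experiment 2 as labelled 0 of 15261 genes were called. The cause was not tested. The all-gene median for SR1848 against DMSO was 0.35, -0.11 with relative log expression, 0.05 with total counts, -0.18 with mitochondrial mRNAs and -0.91 with maternal transcripts.

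Of the single-gene values under alternatives, 444 kept direction and side of the threshold, 103 lost the call and 21 changed sign. In experiment 2 as labelled, SR1848 against DMSO gave Hist1h1a -0.11, Hist1h1c -0.058, Hist1h2aa -0.094, Hist3h2ba -0.041, Hist1h2bc -0.040, Hist2h3c2 -0.32, Hist1h4d -1.29, Hist1h2bp -0.88 and Hist2h2be -11.69. NR5A2 mRNA against DMSO gave Hist1h1a -0.28, Hist1h1c -1.14, Hist1h2aa -0.43, Hist1h2bh -0.042, Hist1h2bc -0.31, Hist2h3c2 -0.62, Hist2h3b -0.43, Hist1h4c -0.14 and Hist1h4d -0.77. Scaled to mitochondrial mRNAs, Hist1h2bh was -8.14 for SR1848 against DMSO and -9.07 for NR5A2 mRNA against DMSO, and with all libraries as labelled Hist2h2be was -8.88 for SR1848 against DMSO.

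Replicate numbers did not pair the libraries: over 73 same-numbered pairs the median correlation of deviations was 0.026, 12 were over 0.1 and the lowest was -0.448, against a median of 0.012 over 2102 other pairs. With the replicate block 32 of 39 members were higher with SR1848 than DMSO, where 38.3% of all genes were higher and 31.7% lower. The lowest depth, 100513 counts, limits low members most.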
